A study of Mus musculus with 6 samples.

Results

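The nectins and cadherins of MC3T3-E1 cells, with the proteins that tie them to the cytoskeleton and the main gap junction protein of bone, were followed through 24 h of C3G treatment. The list held 10 genes chosen by name (*Nectin1*, *Nectin2*, *Nectin3*, *Afdn*, *Cdh2*, *Cdh11*, *Cdh13*, *Ctnna1*, *Ctnnd1* and *Gja1*), and 9 of them were found among the 11234 genes with a value in every library. *Cdh13* was not analysed here. MC3T3-E1 is a mouse preosteoblast line, labelled as strain C57BL/6 and passage 4, and C3G (cyanidin-3-O-glucoside) is an anthocyanin, a plant pigment. All cells were first held in serum-free medium to synchronise them. The C3G group (3 libraries) then received complete medium with C3G at 100 μmol/L, a dose whose unit the labels write as um/l, and the control group (3 libraries) received that medium without C3G (the study also calls these cells vehicle-treated). Total RNA was sequenced from stranded libraries to ask which genes respond to C3G in cells that can form bone.

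Nectins are immunoglobulin-like adhesion proteins that bind nectins on the neighbouring cell, and afadin (*Afdn*) links their tails to actin. Classical cadherins bind one another across the cell border in a calcium-dependent way, and catenins hold them: p120 catenin (*Ctnnd1*) steadies them at the membrane and αE-catenin (*Ctnna1*) couples them to actin. Osteoblasts are known for N-cadherin (*Cdh2*) and cadherin-11 (*Cdh11*, osteoblast cadherin), and for connexin 43 (*Gja1*), whose channels join the cytoplasm of neighbouring bone cells.

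Levels are given as FPKM, sequenced fragments scaled by gene model length and by each library's mapped fragments, so values of different genes can be compared per length. The files hold no read counts, so the depth of the libraries is unknown and counting error cannot be given. The labels do not say whether the replicates were separate cultures, so p-values measure only the spread between these libraries. Control replicate 1 stood apart: its median FPKM was 5.80 against 6.93 to 7.40 in the other 5 libraries, and 71 genes were at 0 against 9 to 18. Of 13 preosteoblast markers 10 were found, including *Runx2* (5.46 to 9.07 FPKM), *Sp7* (0.237 to 0.857), *Sparc* (548 to 901) and *Col1a1* (923 to 4432), while *Ibsp*, *Alpl* and *Bglap* were not analysed here. None of 7 endothelial markers was found. Of 8 epithelial markers, *Cdh1* (0.524 to 1.37 FPKM) and *Krt14* (71.6 to 149) were found, and their summed FPKM was 79.9 to 149 in control (97.7 at most without control replicate 1) and 72.6 to 104 in C3G libraries. Of 6 chondrocyte markers, *Sox9* and *Col2a1* were found, with a summed FPKM of 91.9 to 211 in control (103 at most without control replicate 1) and 87.8 to 111 in C3G libraries. The part of these cell programmes in the results was not tested, and in bulk RNA fewer cells of a type and less RNA per cell cannot be told apart.

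The nectin transcripts differ in base composition, and the departure of control replicate 1 from the other controls differed between genes of low and high GC content. The first 120 bases of exon 2 of each nectin gene, all coding, are shown to make the difference in composition visible. They were read 5′ to 3′ from the longest coding transcript of GENCODE M21 on GRCm38, with capitals marking runs of at least 5 bases that are all G or C. For *Nectin1* this is chr9:43791037-43791156 on the + strand (coding bases 80 to 199), for *Nectin2* chr7:19738255-19738374 on the - strand (coding bases 89 to 208), and for *Nectin3* chr16:46464040-46464159 on the - strand (coding bases 161 to 280).
Nectin1: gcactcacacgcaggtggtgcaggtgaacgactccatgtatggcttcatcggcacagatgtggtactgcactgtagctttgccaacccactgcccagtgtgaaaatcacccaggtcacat
Nectin2: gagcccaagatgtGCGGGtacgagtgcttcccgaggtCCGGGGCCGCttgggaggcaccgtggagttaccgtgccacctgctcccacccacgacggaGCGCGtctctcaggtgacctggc
Nectin3: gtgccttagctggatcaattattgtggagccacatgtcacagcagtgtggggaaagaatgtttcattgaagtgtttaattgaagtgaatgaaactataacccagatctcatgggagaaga
The *Nectin2* stretch was 68.3% G or C and held 3 such runs covering 20 bases. The *Nectin1* stretch was 54.2% G or C and the *Nectin3* stretch 40.8%, and neither held a run of this kind. Over the whole coding sequence the GC content was 59.4% in *Nectin1*, 59.5% in *Nectin2* and 47.3% in *Nectin3*, so *Nectin3* was the AT-rich member of the family.

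In level, the genes fell into distinct tiers. Cadherin-11 stood highest, with a mean of 146 FPKM over the 6 libraries, above 97.9% of all genes. αE-catenin followed at 96.5 FPKM (above 96.8% of genes) and p120 catenin at 39.9 FPKM (above 90.2%). The order of these 3 genes held in 6 of 6 libraries, and their ranges were apart in both groups. N-cadherin (16.1 FPKM), afadin (14.4 FPKM) and connexin 43 (13.3 FPKM) formed a middle tier. In control libraries the ranges of these 3 genes overlapped, and in C3G libraries N-cadherin lay above both, while afadin and connexin 43 still overlapped. The nectins were lowest: *Nectin2* had 4.62 FPKM and was above *Nectin1* in 6 of 6 libraries, whereas *Nectin1* (2.90 FPKM) and *Nectin3* (2.89 FPKM) overlapped and each was the higher one in 3 libraries.

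**Figure D1:**
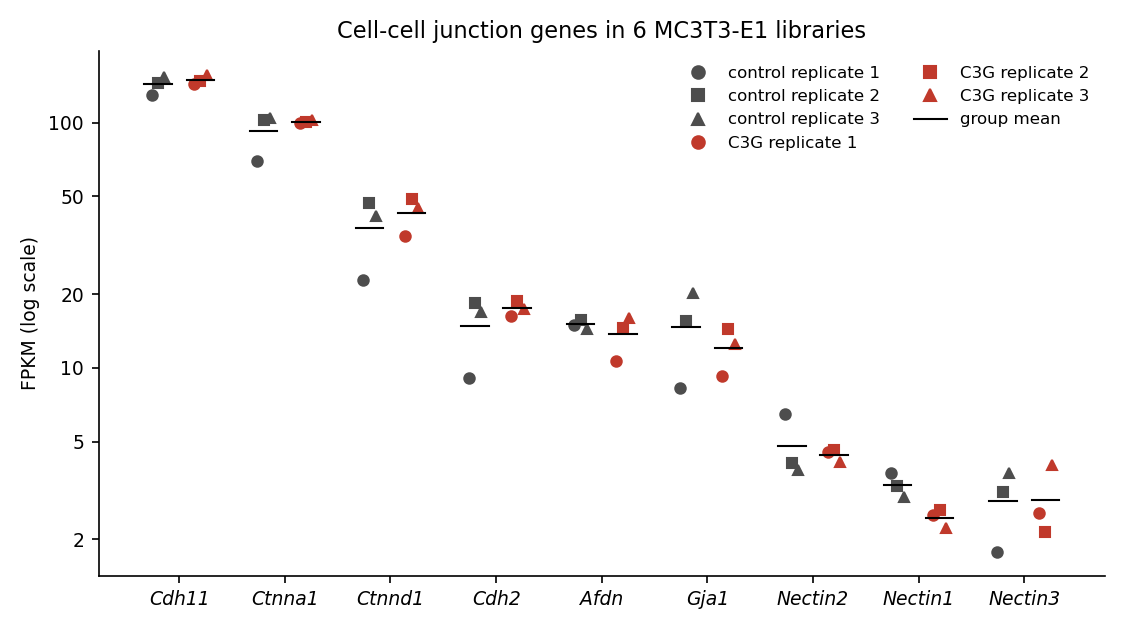
FPKM on a log axis of the 9 genes, ordered by mean, in each control (grey) and C3G (red) library; the marker shape gives the replicate number and the short line the group mean. The genes spread from about 146 FPKM for *Cdh11* to 2.89 FPKM for *Nectin3*, and control replicate 1 lies under the other controls for *Cdh11*, *Cdh2*, *Ctnna1*, *Ctnnd1*, *Gja1* and *Nectin3*.

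None of the 9 genes passed the call of the study's thresholds (here an unadjusted limma p under 0.05 together with a 1.2-fold difference), which 0.65% of all genes (73) met. At an unadjusted p under 0.05 alone the count was also 0 with limma, against 0.659% of all genes (74), and 1 (*Nectin1*) with an ordinary linear model, against 0.908% of all genes (102). The difference of log2(FPKM + 1), C3G minus control, was under 0 for 4 genes and above 0 for 5, with a median of 0.02 against 0.06 over all genes. A fold of at least 1.2 was reached by *Nectin1*, which was lower with C3G, and *Cdh2*, which was higher, and 22.3% of all genes reached this fold. The groups overlapped for 8 genes, and *Nectin1* was the 1 gene with every C3G library under every control library. Over all genes, 4.02% had no overlap in either direction and 1.48% none with C3G lower. After Benjamini-Hochberg adjustment no gene of the table passed 0.05, the smallest adjusted limma p being 0.497, and the adjusted p of the 9 genes was at least 0.992. With 3 libraries against 3 the smallest p of the exact permutation test is 0.1.

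**Figure D2:**
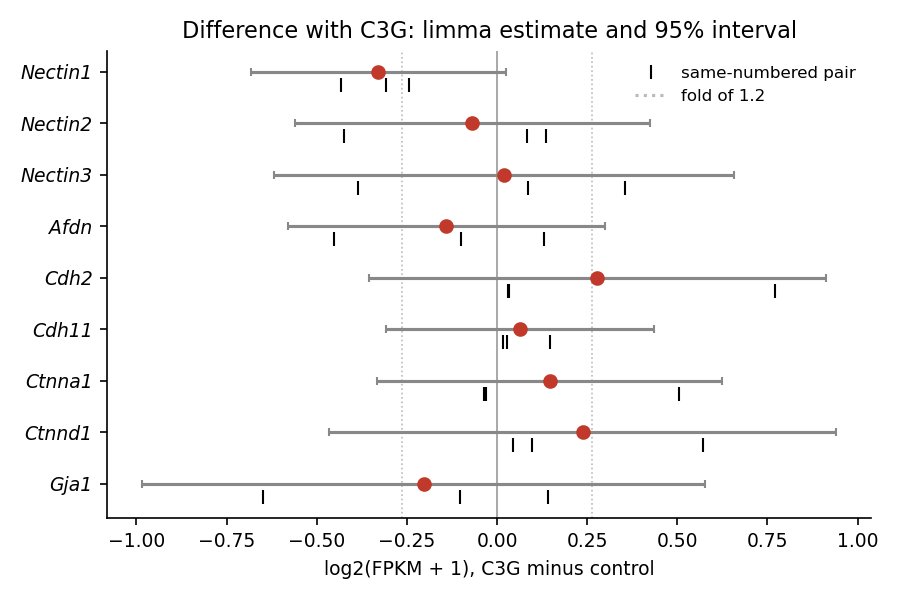
Difference of log2(FPKM + 1), C3G minus control, for each gene (x axis), with the limma estimate (red point) and its 95% interval (bar); black ticks mark the 3 same-numbered pairs and dotted lines a fold of 1.2. Every interval includes 0, and that of *Nectin1* (-0.68 to 0.03) lies almost wholly under it.

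*Nectin1* (ENSMUSG00000032012.8, GRCm38 chromosome 9, 43743984 to 43807461, + strand) encodes nectin-1, which is also a receptor for herpes simplex virus. It was at 3.73, 3.30 and 2.99 FPKM in control replicates 1 to 3 and at 2.50, 2.63 and 2.22 FPKM in C3G replicates 1 to 3. All C3G libraries were thus under the lowest control library. The mean was 3.34 ± 0.374 FPKM in control and 2.45 ± 0.211 FPKM in C3G (SD, n = 3; two-sided exact permutation p = 0.1, the smallest possible). On the log2(FPKM + 1) scale, which understates changes of low genes, the difference was -0.33 (SE 0.149), and its unadjusted limma p of 0.0644 did not pass the threshold (adjusted p = 0.992). *Nectin1* is on the study's list of lowered genes, which was drawn from these same libraries, so its direction here is not independent evidence.

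The replicate numbers were taken as pairs, a choice drawn from these same data that neither the labels nor the study state. C3G was lower in 3 of 3 same-numbered pairs for *Nectin1*, by 0.43, 0.24 and 0.31 in log2(FPKM + 1). This follows from the groups not overlapping and adds no support, and 11.6% of all genes were lower in 3 of 3 pairs. With the replicate number as a block *Nectin1* passed the call, with an unadjusted limma p of 0.0433 (adjusted p = 0.794), and 1.5% of all genes passed in that fit. It also passed in the ordinary linear model without moderation, at an unadjusted p of 0.0203 (adjusted p = 0.983), in which 0.427% of all genes passed. Without control replicate 1 the difference was -0.26 (limma, adjusted p = 0.992). After a correction for GC content it was -0.20 (limma, adjusted p = 0.996), the groups overlapped, and C3G was still lower in 3 of 3 pairs.

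*Nectin2* (ENSMUSG00000062300.14, chromosome 7, 19716644 to 19750483, - strand), a nectin found on many cell types, was at 6.46, 4.11 and 3.84 FPKM in control and at 4.56, 4.61 and 4.13 FPKM in C3G libraries. Control replicate 1 was the highest of all 6, and the other controls lay just under every C3G value. The log2 difference was -0.07 (SE 0.207, 95% interval -0.56 to 0.43, exact permutation p = 1), and without control replicate 1 it was 0.13. Exons of *Nectin2* overlap *Gm20512* on the opposite strand, and 2.44% of its 75-base stretches also occur there.

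*Nectin3* (ENSMUSG00000022656.15, chromosome 16, 46387706 to 46498525, - strand), the partner that binds nectin-1 and nectin-2 across cells, was at 1.78, 3.11 and 3.72 FPKM in control and at 2.55, 2.15 and 4.01 FPKM in C3G libraries. The groups overlapped, with the lowest value in control replicate 1 and the highest in C3G replicate 3. The log2 difference was 0.02 (SE 0.268, 95% interval -0.62 to 0.66, exact permutation p = 1), and it was -0.20 without control replicate 1.

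A share within a library does not depend on a factor that scales the whole library, though it can move with GC content. *Nectin1* made up 31.2%, 31.4% and 28.3% of the summed nectin FPKM in control and 26.0%, 28.0% and 21.4% in C3G libraries. The C3G shares were all under the control shares, and their means differed by -5.14 percentage points (30.3 ± 1.70% against 25.2 ± 3.38%, SD, n = 3, exact permutation p = 0.1). Without C3G replicate 3 the difference was -3.27 points. After GC correction the *Nectin1* shares were 24.5%, 34.1% and 30.6% in control and 24.6%, 30.2% and 23.8% in C3G libraries, so the groups overlapped (difference -3.49 points, exact permutation p = 0.3). The share of *Nectin2* ranged from 36.4% to 54.0% in control and from 39.9% to 49.1% in C3G, and that of *Nectin3* from 14.9% to 35.3% and from 22.9% to 38.7%, so both overlapped. The summed nectin FPKM was 12.0, 10.5 and 10.5 in control and 9.62, 9.40 and 10.4 in C3G libraries, without overlap (exact permutation p = 0.1), and the groups overlapped after GC correction. *Nectin2* was at 1.24 to 1.86 times the FPKM of *Nectin1* in the 6 libraries.

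**Figure D3:**
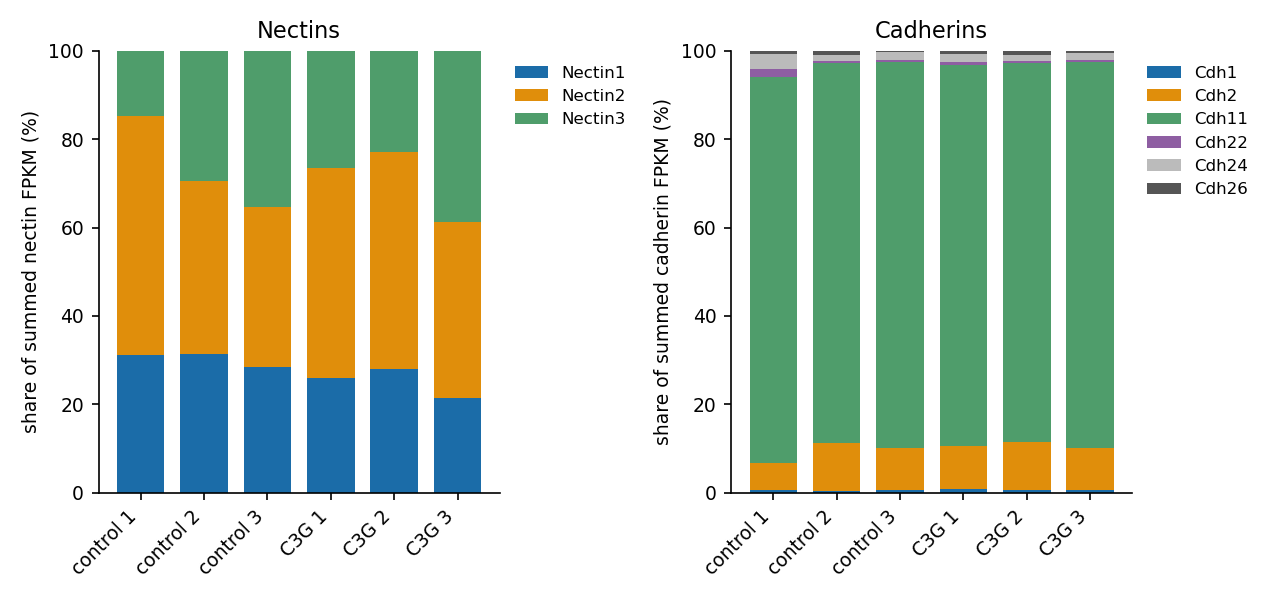
Share of each gene in the summed FPKM of its family (y axis, percent) in each of the 6 libraries, for the 3 nectins (left) and 6 cadherins (right). The *Nectin1* share is 28.3% to 31.4% in control and 21.4% to 28.0% in C3G libraries, and *Cdh11* takes 85.8% to 87.3% of the cadherin FPKM in every library.

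Afadin (*Afdn*, ENSMUSG00000068036.15, chromosome 17, 13760539 to 13906150, + strand) was at 15.0, 15.7 and 14.5 FPKM in control and at 10.7, 14.6 and 15.9 FPKM in C3G libraries. The controls were close together, and C3G replicate 1 alone lay under them, with C3G replicate 3 above. The log2 difference was -0.14 (SE 0.185, 95% interval -0.58 to 0.30, exact permutation p = 0.7), and it was 0.02 without C3G replicate 1. The afadin gene overlaps *Tcte2* on the opposite strand, and 1.53% of its 75-base stretches also occur in *Zfp160*.

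*Cdh2* (ENSMUSG00000024304.14, chromosome 18, 16588877 to 16809246, - strand) was at 9.12, 18.3 and 17.0 FPKM in control and at 16.3, 18.8 and 17.3 FPKM in C3G libraries. Control replicate 1 stood alone at the low end, and the other 5 libraries lay between 16.3 and 18.8 FPKM. The means were 14.8 ± 4.97 and 17.5 ± 1.26 FPKM (SD, n = 3, exact permutation p = 0.6), and the log2 difference was 0.28 (SE 0.266, adjusted limma p = 0.992). C3G was higher in 3 of 3 pairs, by 0.77, 0.03 and 0.03, as in 14.2% of all genes. Without control replicate 1 the difference was -0.015, and with replicates 2 and 3 only it was 0.03.

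*Cdh11* (ENSMUSG00000031673.6, chromosome 8, 102632095 to 102785642, - strand), the cadherin of highest FPKM here, was at 129, 146 and 154 FPKM in control and at 143, 147 and 157 FPKM in C3G libraries. The groups overlapped, and C3G was higher in each pair by no more than 0.15 on the log2 scale. The log2 difference was 0.06 (SE 0.156, 95% interval -0.31 to 0.44, exact permutation p = 0.5). It was -0.0058 without control replicate 1, 0.02 with replicates 2 and 3 only and -0.075 after GC correction. *Cdh11* made up 85.8% to 87.3% of the summed FPKM of 6 *Cdh* genes in every library, *Cdh2* 6.15% to 10.9% and E-cadherin (*Cdh1*), the epithelial cadherin, 0.310% to 0.825%. The ratio of *Cdh11* to *Cdh2* was 14.2, 7.94 and 9.07 in control and 8.80, 7.84 and 9.04 in C3G libraries. Apart from control replicate 1 it was nearly constant, and the mean log2 ratio of C3G minus control was -0.22 with that library (exact permutation p = 0.4) and 0.01 without it.

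*Ctnna1* (ENSMUSG00000037815.7, chromosome 18, 35118859 to 35254779, + strand) was at 69.6, 103 and 105 FPKM in control and at 99.2, 101 and 102 FPKM in C3G libraries. Control replicate 1 was low and the other 5 libraries lay within 99.2 to 105 FPKM. The log2 difference was 0.15 (SE 0.201, 95% interval -0.33 to 0.62, exact permutation p = 1), and it was -0.04 without control replicate 1.

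*Ctnnd1* (ENSMUSG00000034101.14, chromosome 2, 84600071 to 84650765, - strand) was at 22.9, 47.1 and 41.8 FPKM in control and at 34.5, 48.6 and 44.8 FPKM in C3G libraries. Replicate 1 was the lowest library of either group. The log2 difference was 0.24 (SE 0.296, 95% interval -0.46 to 0.94, exact permutation p = 0.6), and C3G was higher in 3 of 3 pairs (0.57, 0.05 and 0.10). Without control replicate 1 the difference was -0.07, and with replicates 2 and 3 only it was 0.07. The gene overlaps *Gm28635* on its own strand, with which 69.0% of its 75-base stretches are shared, so its level depends on how the authors' counting divided those reads. αE-catenin was at 2.07 to 3.04 times the FPKM of p120 catenin. β-Catenin (*Ctnnb1*), the catenin that also carries Wnt signals, was at 63.5, 51.8 and 65.1 FPKM in control and at 59.7, 62.1 and 49.9 FPKM in C3G libraries, with a log2 difference of -0.07 (exact permutation p = 0.5).

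*Gja1* (ENSMUSG00000050953.10, chromosome 10, 56377330 to 56402513, + strand) was at 8.31, 15.5 and 20.2 FPKM in control and at 9.27, 14.3 and 12.5 FPKM in C3G libraries. Replicate 1 was again the lowest of each group, and control replicate 3 the highest of all. The means were 14.7 ± 5.98 FPKM in control and 12.0 ± 2.57 FPKM in C3G (SD, n = 3, exact permutation p = 0.7), and the log2 difference of -0.20 (SE 0.328) had the widest interval of the 9 genes, -0.98 to 0.58 (adjusted limma p = 0.992).

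The *Gja1* result depended on the treatment of replicate 1 and of control replicate 3. Without control replicate 1 the log2 difference was -0.54 and passed the call (unadjusted limma p of 0.0331, adjusted p = 0.992), as did 1.28% of all genes. With replicates 2 and 3 only it was -0.38 and passed (unadjusted limma p of 0.0485, adjusted p = 1.00), as did 1.7% of all genes. After GC correction it was -0.39 and passed both without the replicate block (unadjusted limma p of 0.0293, adjusted p = 0.996, with 1.2% of all genes passing) and with it (0.0369, adjusted p = 0.785, with 2.19% passing). Without C3G replicate 1 it was -0.04 and without control replicate 3 it was 0.05, and it passed in neither. The GC-corrected FPKM was 14.2, 13.1 and 17.5 in control and 10.1, 12.3 and 10.8 in C3G libraries, so the groups no longer overlapped (exact permutation p = 0.1), as for 3.51% of all genes with C3G lower. No adjusted p of the 9 genes passed 0.05 in any of 16 alternatives, the lowest being 0.785.

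**Figure D4:**
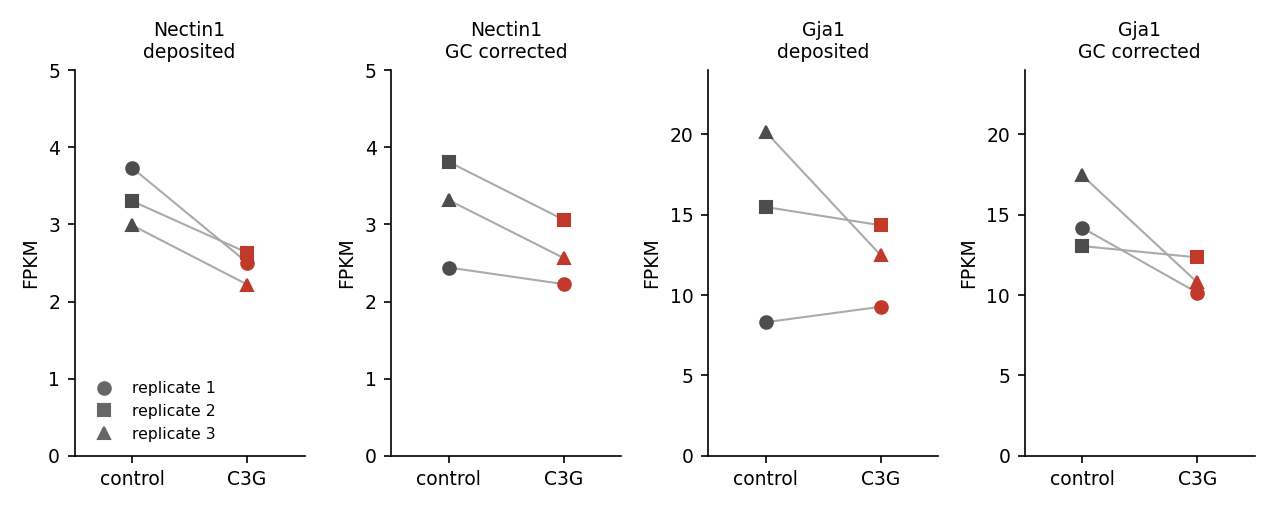
FPKM of *Nectin1* (2 left panels) and *Gja1* (2 right panels) as deposited and after GC correction; grey lines join libraries of the same replicate number. As deposited, the groups are apart for *Nectin1* and overlap for *Gja1*; after GC correction *Nectin1* overlaps and *Gja1* is apart.

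*Gjc1* (connexin 45), another gap junction protein of osteoblasts, was at 8.34, 10.8 and 9.88 FPKM in control and at 9.82, 9.96 and 9.41 FPKM in C3G libraries. The C3G libraries lay within the range of the controls, and the log2 difference was 0.01 (SE 0.158, exact permutation p = 0.9).

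The departure of control replicate 1 from controls 2 and 3 was close to that of genes of like base composition for some of the 9 genes and not for others. *Gja1*, with 42.2% GC in its longest transcript, was lower by 1.01 in log2(FPKM + 1), and genes within 1 percentage point of its GC content had a median departure of -0.92. *Nectin2*, with 58.0% GC, was higher by 0.59, against 0.51 for genes of like GC. *Nectin1*, with 59.1% GC, was higher by 0.19, less than the 0.61 of genes of like GC. *Nectin3* (45.7% GC) departed by -0.66 against -0.57, and *Cdh11* (44.9% GC) by -0.21 against -0.63. *Afdn* (48.6% GC) departed by -0.01, against -0.30 for genes of like GC. *Cdh2*, *Ctnna1* and *Ctnnd1* (47.9% to 49.5% GC) departed by -0.88, -0.57 and -0.92, each further than genes of like GC (-0.21, -0.22 and -0.36). C3G replicate 1 departed from the other C3G libraries by -0.49 for *Gja1*, -0.48 for *Afdn* and -0.42 for *Ctnnd1*, and by -0.16 to 0.05 for the other members. The part of base composition in the C3G differences was not tested beyond the GC-corrected values above.

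**Figure D5:**
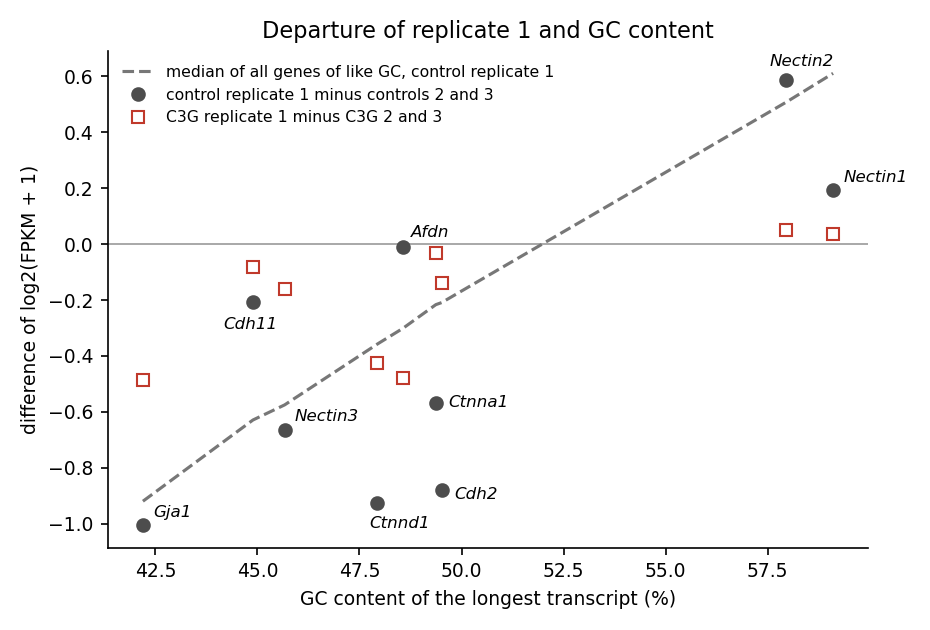
Difference of log2(FPKM + 1) between replicate 1 and the mean of replicates 2 and 3 (y axis), for control (grey points) and C3G (open red squares), against the GC content of each gene's longest transcript (x axis); the dashed line joins the medians of all genes of like GC in control. In control the values run from -1.01 for *Gja1* at 42.2% GC to 0.59 for *Nectin2* at 58.0% GC.

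Other genes of cell-cell junctions were taken from 9 lists that name 185 genes, of which 89 were found and 80 are not among the 9 genes above. With the group alone in the model, none of the 80 passed the call and none had a limma p under 0.05. Their median log2 difference was 0.02. In 2 of them, singled out after their values were seen, the groups did not overlap, against 4.02% of all genes. The protocadherin *Pcdhb14* was at 1.08, 1.83 and 1.76 FPKM in control and at 2.04, 1.85 and 2.08 FPKM in C3G libraries, and cortactin (*Cttn*), an actin-binding protein, was at 56.9, 56.4 and 56.1 FPKM in control and at 51.8, 54.7 and 52.9 FPKM in C3G libraries. *Pcdhb14* belongs to a cluster of closely related genes, whose shared reads the counting may have split.

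By list, members above included, the nectin family had 2 of 4 genes with a difference above 0 (median -0.02) and the cadherins 5 of 8 (median 0.07). Protocadherins and giant cadherins had 13 of 17 above 0 (median 0.14), with *Fat1*, a giant protocadherin, the most abundant at a mean of 41.5 FPKM. Catenins and linkers of the adherens junction had 8 of 21 above 0 (median -0.03), connexins and pannexins 5 of 7 (median 0.05), and tight junction genes 6 of 11 (median 0.01), led by *Ybx3*, a DNA- and RNA-binding protein of tight junctions, at 133 FPKM. Of 15 desmosome genes 2 were found (median 0.02), led by *Pkp4* at 12.2 FPKM. Proteases that cleave cadherins had 7 of 11 above 0 (median 0.03), led by *Mmp2* at 297 FPKM, and repressors of cadherin transcription 3 of 8 (median -0.04), led by *Snai1* at 46.0 FPKM. No gene of these lists passed the call with the group alone in the model, so these counts describe the signs of differences and not calls. Over all genes the median was 0.06, so more genes than not lay above 0, and it was -0.012 without control replicate 1.

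With the replicate block, *Panx3* and *Cldn12* passed the call, both higher with C3G, in a fit in which 1.5% of all genes passed. *Panx3*, a pannexin of bone and cartilage cells, was at 1.21, 3.76 and 3.38 FPKM in control and at 3.33, 4.99 and 4.37 FPKM in C3G libraries (exact permutation p = 0.3). *Cldn12*, a claudin, was at 1.42, 3.73 and 2.03 FPKM in control and at 2.63, 6.76 and 5.18 FPKM in C3G libraries (exact permutation p = 0.2). The groups overlapped for both genes. C3G was higher in every same-numbered pair, as in 14.2% of all genes, but the block fit that singled them out favours such genes, so this is no separate support.

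The genes whose profile over the 6 libraries lay nearest to that of *Nectin1* were *Fndc4*, *Slc22a4* and *Ddx27*, by the root mean square difference of centred log2(FPKM + 1) values. Their distances were 0.0418, 0.0545 and 0.0630 against a median of 0.323 over 10463 genes. *Fndc4*, a secreted protein gene with a fibronectin domain, was at 1.55, 1.40 and 1.19 FPKM in control and at 0.900, 1.13 and 0.756 FPKM in C3G libraries. *Ddx27*, an RNA helicase gene, was at 21.9, 18.8 and 16.9 FPKM in control and at 14.8, 16.5 and 15.3 FPKM in C3G libraries. Both were high in control replicate 1 and had every C3G library under every control library, as *Nectin1* did. They were chosen for nearness to *Nectin1*, so this likeness is built in and is no separate support. *Fndc4* is also on the study's list of lowered genes, drawn from these same libraries. Of the 8 other genes described above, *Nectin2* came nearest, at rank 1173, and *Ctnnd1* was farthest, at rank 8153.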

How the data were processed

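The deposited values are FPKM per gene and library, which the authors calculated with Ballgown. The submitters' processing notes name cutadapt, HISAT2 2.1.0, StringTie, STAR 2.5.2b and the human build hg19 without their order, although the identifiers are those of mouse genes, and the annotation is not given in the sources used here. Every gene had a group mean of at least 0.500 FPKM in 1 group, so genes low in both are absent. Low values showed no steps of whole reads (at most 30.0% lay within 0.1 of one), and precision is limited to the spread of 3 libraries per group.

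Libraries were grouped by their titles. Identifiers were matched to GENCODE M21 symbols (11211 of 11234, with 23 unmatched), and positions, GC content of the longest transcript, exon overlaps and shared 75-base stretches were taken from it. All genes were fitted together on the log2(FPKM + 1) scale with limma 3.58.1 (lmFit, eBayes with trend; R 4.3.3), the model holding the group alone. A call needed a 1.2-fold difference and a two-sided p under 0.05 before adjustment. Single values were compared with two-sided exact permutation tests in scipy 1.17.1. The GC correction subtracted, per library, a natural spline of GC content with 5 degrees of freedom. Deviations from the group mean correlated across genes at 0.653, 0.580 and 0.440 for same-numbered libraries and at -0.640 to 0.307 for different numbers. The label numbers were therefore taken as pairs, though neither the labels nor the study state a pairing. Centring on group means itself lowers the correlations of different numbers when those of equal numbers are high.

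Named were the listed genes, called genes and the most abundant gene of each junction list, the 3 genes nearest to *Nectin1* with a mean of at least 1 FPKM, and defining genes of the marker lists. *Ctnnb1*, *Cdh1*, *Gjc1*, *Panx3*, *Cldn12*, *Pcdhb14*, *Cttn* and genes called only in an alternative (*Fat4*, *Pcdhgc3* and *Pcdhgb4*) were named beyond this rule, with values known. Some genes under this rule are not reported here. The members and lists were chosen with earlier results of these data known. With the fits that left out single libraries, 16 alternatives were run. They varied the scaling (median centring or quantile normalization), the pseudocount (0.1), the moderation (none, or no trend), the genes kept (mean FPKM of 1 or more), the replicate block, the GC correction (also combined with the block) and the libraries (replicates 2 and 3 alone). The fit with the group alone was run on simulated data with independent noise for each gene and library. The simulation held no GC trend and no replicate differences, so the behaviour of the fits under these was not tested.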

Additional observations from a re-analysis of the deposited data

How the results depend on the processing

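Depth was unknown, so only the spread between libraries limits the values, and control replicate 1 sets much of it. The number of junction members passing the call was 0, and it was 1 with the ordinary linear model and with the replicate block (*Nectin1* both times) and 1 with GC correction, alone or with the block, and 1 when replicate 1 was dropped from both groups, leaving replicates 2 and 3 (*Gja1* each time); leaving out single libraries gave 0 to 1, the 1 being *Gja1* without control replicate 1. Over all genes 73 passed (45 higher and 28 lower), 48 with the ordinary linear model, 169 with the replicate block (100 higher and 69 lower), 135 with GC correction (67 and 68), 246 with GC correction and the block (119 and 127), 191 with replicates 2 and 3 only (88 and 103), and 40 to 144 when single libraries were left out (144 and 127 without control replicate 1 or 2; 45, 40 and 43 without C3G replicate 1, 2 or 3). Quantile normalization gave 30 higher and 30 lower. Of the other junction genes 0 passed, but 2 with the replicate block and 2 with GC correction (*Panx3* and *Cldn12*), 4 with both (*Fat4* and *Ybx3* added), 3 with replicates 2 and 3 only (*Pcdhgc3* added), and 0 to 2 when single libraries were left out (*Pcdhgc3* without control replicate 1, *Pcdhgb4* and *Cldn12* without control replicate 2, *Ybx3* without control replicate 3 and *Cldn12* without C3G replicate 1). The *Nectin1* share difference was -3.49 points with GC correction, where the groups overlapped (exact permutation p = 0.3). It was -6.56 to -3.27 points and the *Cdh11* to *Cdh2* log2 ratio difference -0.37 to 0.01 when single libraries were left out.

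Signs turned as follows, and no value with a turned sign passed the call. With GC correction, with or without the block, the log2 difference was 0.026 for *Nectin2*, -0.11 for *Nectin3* and -0.075 for *Cdh11*. With replicates 2 and 3 only it was 0.11 for *Nectin2*, -0.15 for *Nectin3*, 0.016 for *Afdn* and -0.032 for *Ctnna1*. *Nectin3* was at -0.080 with quantile normalization and -0.047 with median centring, under which *Cdh11* was at -0.0021. Leaving out single libraries gave -0.39 to -0.26 for *Nectin1*, -0.19 to 0.13 for *Nectin2*, -0.20 to 0.18 for *Nectin3*, -0.25 to 0.019 for *Afdn*, -0.015 to 0.45 for *Cdh2*, -0.0058 to 0.12 for *Cdh11*, -0.043 to 0.25 for *Ctnna1*, -0.070 to 0.43 for *Ctnnd1* and -0.54 to 0.054 for *Gja1*. The causes were not tested. The sign of *Nectin1* was the same in all 16 alternatives. The replicate block changed the call of no other junction member.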
